A study of Mus musculus with 86 samples.

Results

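The translation initiation and elongation factors are the proteins that bring the ribosome to the start of an mRNA and then move it along the coding sequence. Their genes were taken as all probes of the array whose gene symbol begins with Eif or Eef followed by a digit. Of 20794 probes, 67 carried such a symbol, and they belonged to 44 of the 9030 named genes. A gene was read from 1 probe, the one with the most values over the 86 arrays; 29 genes had a single probe and 15 had several. All 44 symbols were found in the RefSeq annotation. RNA came from whole liver, spleen, thymus and brain of male mice heterozygous for Dll1tm1Gos, a targeted allele of the Notch ligand gene Dll1 in which lacZ interrupts the coding sequence. The allele was present in every cell of these animals, on the C3H background at an age of 15 weeks and on the 129SvJ/Iso background at 16 weeks. Heterozygous samples were hybridised against pooled RNA of male wild-type mice of the same strain, age and organ, in both dye orientations except for mouse 1 in C3H spleen, which had a single array with its RNA in Cy3. The C3H line came from repeated outcrossing of the allele to C3HeB/FeJ mice. Values came from 5 mice in each C3H organ, from 4 mice in 129SvJ/Iso liver, 5 in spleen and 4 in brain, whereas 129SvJ/Iso thymus was measured on 6 arrays of pooled heterozygous against pooled wild-type RNA.

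In translation initiation, eIF2 with GTP carries the initiator tRNA to the small ribosomal subunit, eIF3 holds the subunit in readiness, and the cap-binding eIF4 factors recruit the mRNA. eIF2B recharges eIF2 with GTP, and phosphorylation of eIF2 by stress kinases such as PKR blocks that step and lowers protein synthesis. During elongation eEF1A delivers each aminoacyl-tRNA and eEF2 translocates the ribosome, and mRNAs of many such factors share with ribosomal protein mRNAs a pyrimidine tract at the 5′ end that places them under mTOR control.

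All values are ratios on the log2 scale, heterozygous over wild type, so that a value of −1 is a halving of the signal. No level of a gene can be given, nor can the labelled organs be checked against the levels of their markers. That the ratios run as heterozygous over wild type is likely and not settled, since it rests on the direction in which the study gives its own liver and thymus genes and on a sign rule that all arrays share. Arrays of the same mouse in opposite dyes correlated no better than such arrays of different mice in C3H spleen (−0.04 against −0.02) and in 129SvJ/Iso brain (−0.11 against −0.11). Arrays of different mice in the same dye correlated better than those of 1 mouse in opposite dyes in most groups, as in C3H brain (0.165 against 0.022) and C3H thymus (0.13 against 0.061). Only 129SvJ/Iso liver, among the groups with mice as replicates, had the reverse (0.142 against 0.217). Between 3.07% and 10.2% of values were missing in the C3H groups and between 21.9% and 27% in the 129SvJ/Iso groups. The 2 Dll1 probes averaged 0.15 and −0.81 in C3H liver and −0.46 and −0.10 in C3H thymus, and their place relative to the lacZ insertion is not known, so that they check nothing. Since every ratio was taken against a wild-type pool, the tests leave out the spread between wild-type mice.

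None of the 44 genes passed the test (limma, adjusted p under 0.05) in any of the 7 groups with mice as replicates, where 0% of all probes passed as well. At an unadjusted p under 0.05, 6 genes had lower and 1 had higher ratios in C3H liver, against 7.66% and 6.11% of all probes. In C3H spleen 2 were lower and 0 higher, with 2.86% and 3.08% of all probes; in C3H thymus 4 were lower and 1 higher, with 5.31% and 2.82%; and in C3H brain 4 were lower and 0 higher, with 5.03% and 3.73%. These counts came from 44 tested genes in each of liver, spleen and brain and from 42 in thymus. In the 129SvJ/Iso mice 0 genes were lower and 1 was higher of 33 tested in liver (6.25% and 7.86% of all probes), 0 passed in either direction of 37 in spleen (2.35% and 2.42%), and 0 were lower and 1 higher of 35 in brain (2.85% and 2.47%). The smallest adjusted p of a factor was 0.346, in 129SvJ/Iso liver, and the smallest in the C3H organs was 0.36, in liver. Where a gene had further probes, these often disagreed with the chosen one: 12 of 23 further probes shared its side of 0 in C3H liver, 8 of 19 in spleen, 13 of 22 in thymus and 16 of 22 in brain. The map of mean ratios by gene and group shows the whole set.

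**Figure D1:**
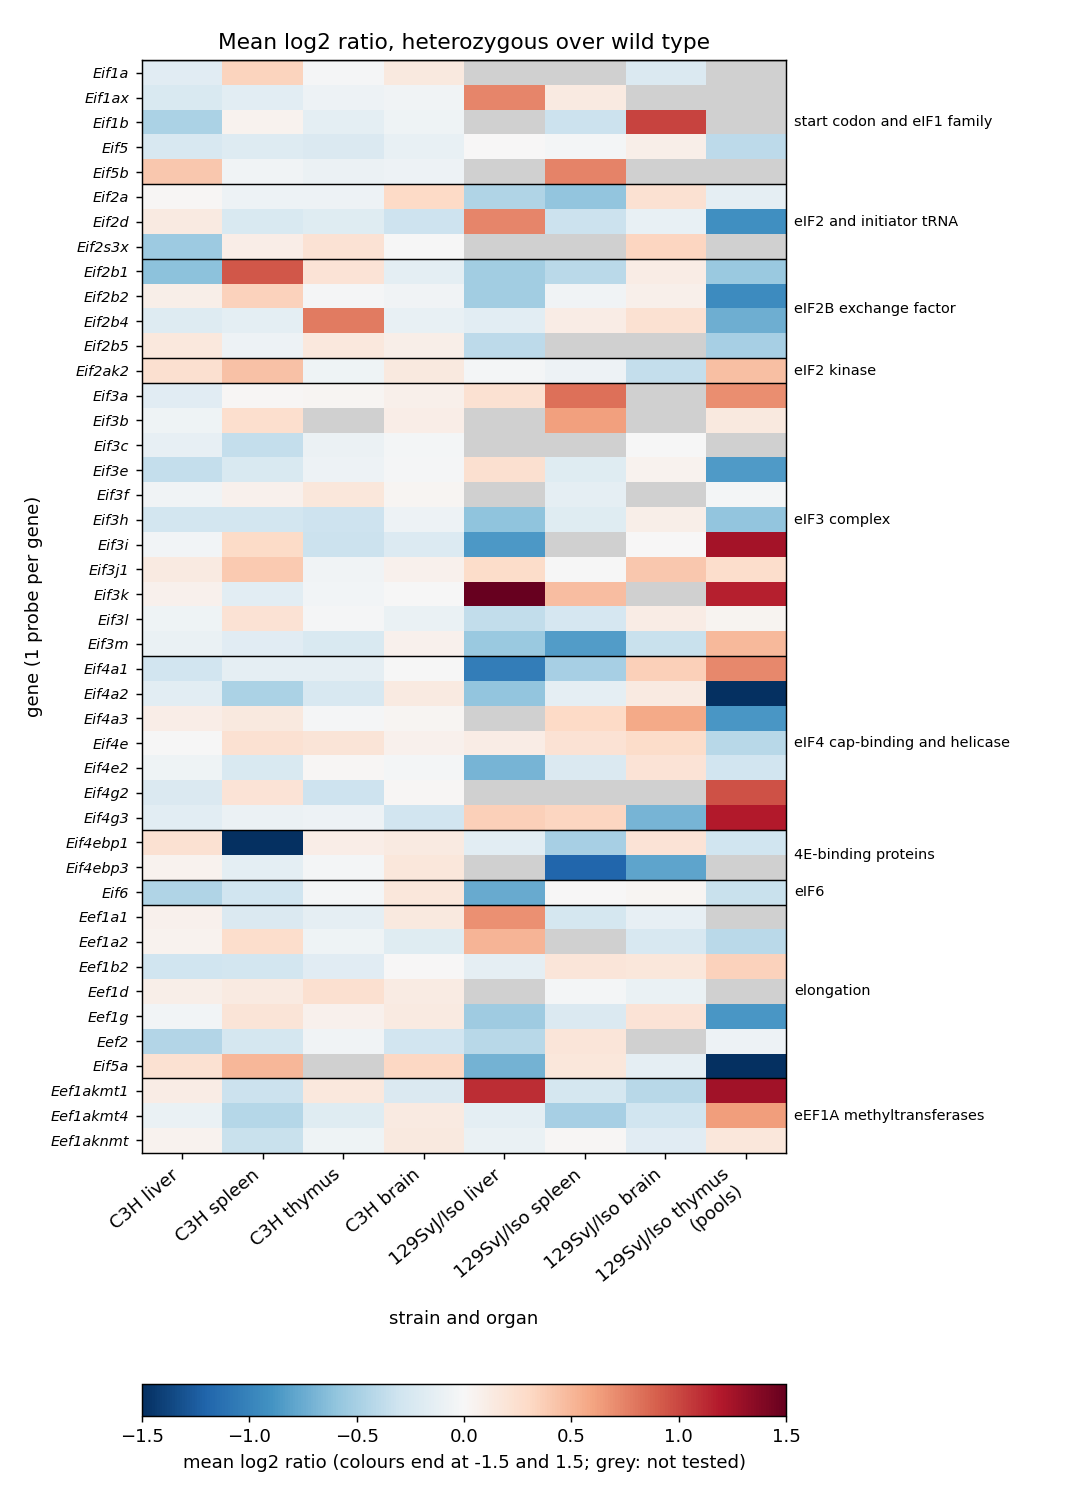
Mean log2 ratio of heterozygous over wild-type RNA (colour) of the 44 genes (rows, ordered by role) in the 8 strain and organ groups (columns). Grey cells had values in too few mice (fewer than 3) or, for the thymus pools, too few arrays; the colour scale ends at −1.5 and 1.5, which Eif4ebp1 in C3H spleen (−1.56), Eif3k in 129SvJ/Iso liver (1.68) and Eif5a and Eif4a2 in the 129SvJ/Iso thymus pools pass.

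The factors as a set lay slightly below 0 in most groups. In C3H liver 27 of 44 genes had a mean ratio below 0 (43.4% of all probes did), with a median of −0.06 against 0.034 over all probes. In C3H thymus 30 of 42 were below 0 (49.7% of all probes) with a median of −0.057 against 0.001, and in C3H spleen 25 of 44 (50.8%) with −0.086 against −0.005. C3H brain had 21 of 44 genes below 0 (46.8% of all probes) and a median of 0.011, next to 0.012 over all probes. The set thus lay below the median probe in 3 of the C3H organs and at it in brain. In 129SvJ/Iso liver 21 of 33 genes were below 0 (45.4% of all probes) with a median of −0.156 against 0.074, in spleen 23 of 37 (51.3%) with −0.081 against −0.014, and in brain 14 of 35 (47.8%) with 0.071 against 0.019. Not every mouse shared the shift: the median of the set ran from −0.149 to 0.007 over the 5 C3H liver mice and from −0.411 to −0.15 over the 4 129SvJ/Iso liver mice. In C3H thymus it ran from −0.162 to 0.074, and in C3H spleen from −0.24 to 0.007. All 4 mice of 129SvJ/Iso liver and 4 of 5 mice in each of C3H liver, spleen and thymus were below 0. With arrays of a single dye orientation the C3H thymus median turned to 0.034 (heterozygous RNA in Cy3), the C3H spleen median was 0.005 (Cy5), and in C3H brain the medians were 0.125 in Cy3 and −0.104 in Cy5. Genes with every mouse below 0 numbered 8 in C3H liver (6.81% of all probes), 6 in spleen (6.14%), 5 in thymus (6.93%) and 3 in brain (7.05%), and those with every mouse above 0 numbered 2 (9.87%), 2 (6.09%), 2 (5.34%) and 1 (5.81%). In 129SvJ/Iso liver 9 genes had every mouse below 0 and 4 above (16.8% and 17.6% of all probes), in spleen 4 and 2 (7.2% and 7.24%) and in brain 3 and 6 (8.37% and 11.8%). The C3H liver thus had more genes with every mouse below 0 than above, the reverse of all probes.

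**Figure D2:**
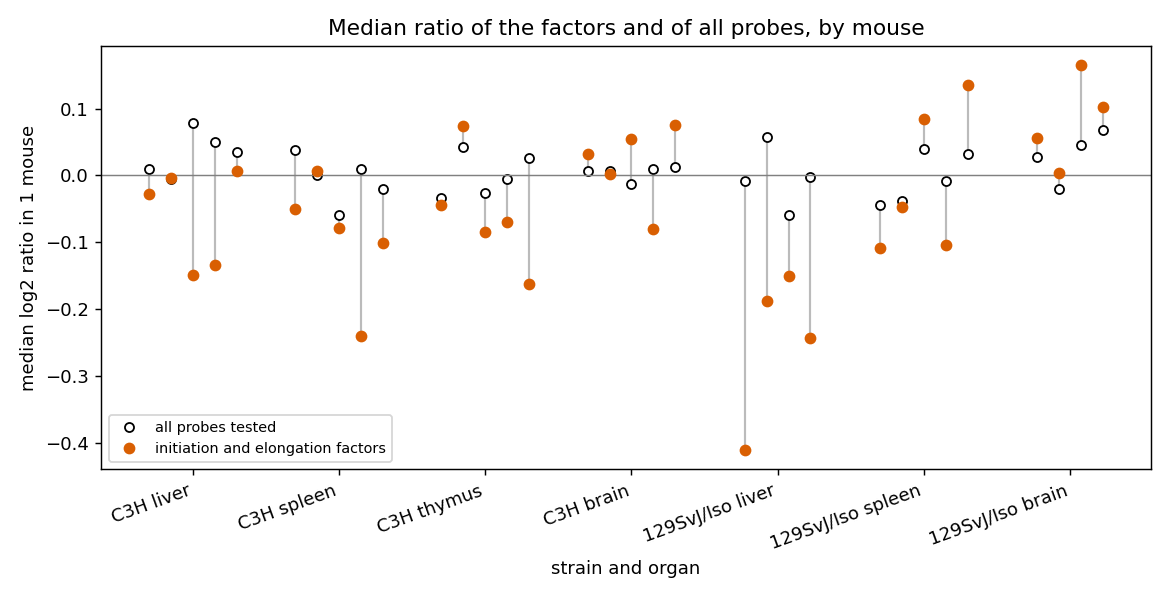
Median log2 ratio of the Eif and Eef genes in each mouse (points) beside the median over all probes of the same mouse, for the 7 groups with mice as replicates. The set's median lies between −0.411 and −0.15 in the 129SvJ/Iso liver mice and between −0.149 and 0.007 in the C3H liver mice.

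Among the elongation factors the clearest ratios were those of Eef2, the translocase that moves the ribosome along the mRNA by 1 codon and the target of diphtheria toxin. In C3H liver its ratio was −0.56, −0.17, −0.62, −0.81 and −0.03 in mice 1 to 5. All 5 mice lay below 0, mouse 5 close to it, and the mean of −0.44 ± 0.32 (SD, n = 5) had an unadjusted p of 0.0147 and an adjusted p of 0.36 (limma). In C3H brain the values were −0.38, −0.50, 0.06, −0.37 and −0.26, giving −0.29 ± 0.21 (n = 5) with an adjusted p of 0.565. Mouse 3 was the exception there. C3H spleen averaged −0.26 ± 0.21 with 4 of 5 mice below 0, and C3H thymus −0.05 ± 0.25 with mice on both sides. The gene has 4 probes on the array, and all 4 had mean ratios below 0 in each C3H organ, from −0.45 to −0.16 in liver, −0.44 to −0.16 in brain, −0.38 to −0.07 in spleen and −0.13 to −0.05 in thymus. At an unadjusted p under 0.05 were 3 of the 4 probes in liver, 3 in brain, 1 in spleen and 0 in thymus, which are readings of the same RNA and not replicates. In 129SvJ/Iso liver the single tested probe gave −0.48, −0.07 and −0.71 in mice 1, 2 and 5, a mean of −0.42 ± 0.32 (n = 3). In 129SvJ/Iso spleen all 3 tested probes were above 0 (0.18 to 0.37) and in brain they split (−0.44 and 0.29). All tested probes of both strains thus shared a side of 0 in liver alone, where 129SvJ/Iso had the single tested probe. Over all probes of Eef2 the mean in 129SvJ/Iso liver was 0.10 and not −0.42.

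**Figure D3:**
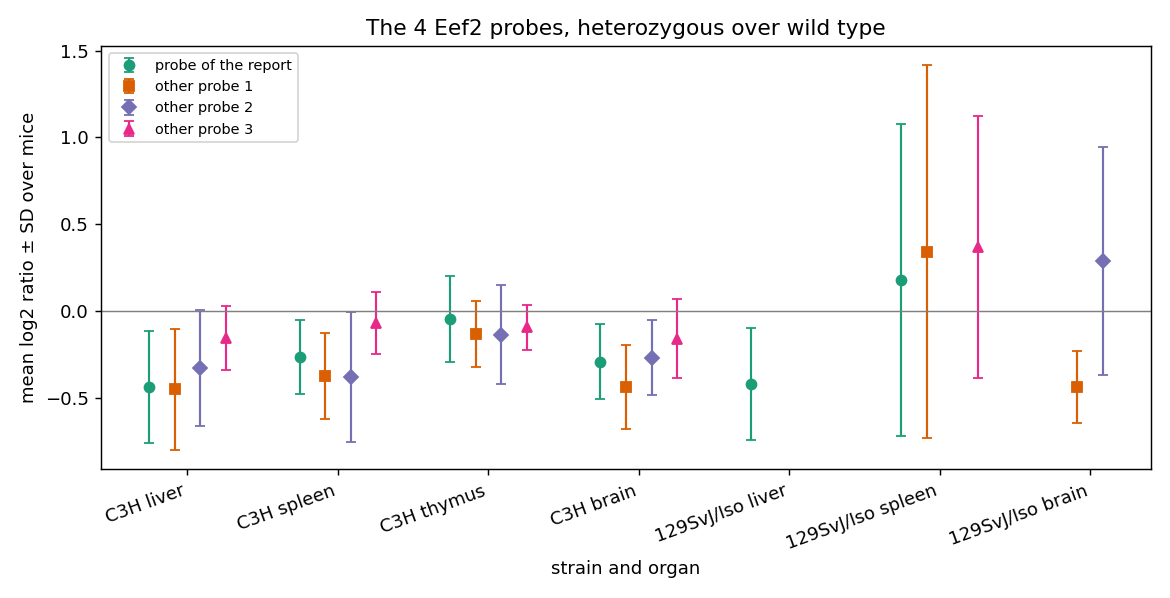
Mean log2 ratio of heterozygous over wild-type RNA for each tested probe of Eef2 (symbols; bars are the SD over mice) in the C3H and 129SvJ/Iso groups. All 4 probes lie below 0 in each C3H organ, from −0.45 to −0.16 in liver and from −0.13 to −0.05 in thymus, while the 3 probes of 129SvJ/Iso spleen lie above 0.

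The eEF1 genes varied among themselves and between their probes. Eef1d, a subunit of the factor that reloads eEF1A with GTP, was the only elongation factor with higher ratios at an unadjusted p in C3H thymus, at 0.18, 0.34, 0.23, 0.13 and 0.29 in the 5 mice. Every mouse was above 0, in a narrow range, and the mean of 0.24 ± 0.08 (n = 5) had an adjusted p of 0.577, but the other 2 probes of Eef1d averaged 0.04 and −0.01 there. In the other C3H organs Eef1d averaged 0.09 in liver, 0.13 in spleen and 0.12 in brain with mice on both sides of 0. Eef1b2, a second subunit of that exchange factor, read −0.12, −0.10, −0.50, −0.38 and −0.25 in C3H spleen, every mouse below 0, with a mean of −0.27 ± 0.17 (n = 5) and an adjusted p of 0.796. Eef1b2 averaged −0.06 there with the Cy5 arrays turned in sign. It averaged −0.30 ± 0.40 in C3H liver and −0.17 ± 0.17 in C3H thymus, with 4 of 5 mice below 0 in each, and 0.00 ± 0.08 in C3H brain. Eef1g, the subunit that anchors the complex, had mice on both sides of 0 in every C3H organ, with means between −0.05 in liver and 0.19 in spleen. The tRNA carriers themselves, Eef1a1 and the nerve and muscle form Eef1a2, did so as well, with means from −0.21 to 0.14 for Eef1a1 and from −0.18 to 0.27 for Eef1a2. The second probe of Eef1a1, however, averaged −0.54 ± 0.44 (n = 5, unadjusted p = 0.0173) in C3H liver, where the chosen probe averaged 0.07, and −0.26, −0.08 and 0.06 in spleen, thymus and brain. In the liver of the 129SvJ/Iso mice the chosen probes of Eef1a1 and Eef1a2 lay above 0 in all mice measured. Eef1a1 read 0.70, 1.14 and 0.22 (mice 1, 2 and 5, adjusted p = 0.415), and Eef1a2 read 1.10, 0.52, 0.01 and 0.43 (mice 1, 2, 3 and 5, adjusted p = 0.448). The Eef1a1 mean there went from 0.69 to −0.13 when any array of a mouse was enough. That of Eef1a2 went from 0.52 to 0.08 over all its probes. Probes of cDNA may also bind transcripts of close copies, so that paralogs such as Eef1a1 and Eef1a2, or Eif4a1 and Eif4a2, need not be fully separate readings. Of the 7 elongation factors 3 were below 0 in C3H liver, 3 in spleen, 4 of 6 tested in thymus and 2 in brain. Of the 3 methyltransferases that modify eEF1A all were below 0 in C3H spleen (−0.43 to −0.33) and in 129SvJ/Iso brain (−0.41 to −0.17), none at an unadjusted p under 0.05.

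The factors that carry the initiator tRNA and choose the start codon held the factor with the smallest p in C3H liver. Eif2s3x, the X-linked gene of the subunit of eIF2 that binds GTP and the tRNA, had ratios of −1.01, −0.15, −0.76, −0.57 and −0.23 in the 5 mice. All were below 0 and the range was wide, with a mean of −0.54 ± 0.36 (n = 5), an unadjusted p of 0.00797 and an adjusted p of 0.36. Both dye orientations gave like means, −0.56 with heterozygous RNA in Cy3 and −0.53 in Cy5. In the other C3H organs the mice of Eif2s3x lay on both sides of 0, with means of 0.10 in spleen, 0.21 in thymus and 0.00 in brain. Eif5, which makes eIF2 hydrolyse its GTP once the start codon is found, read −0.10, −0.10, −0.40, −0.50 and −0.11 in C3H liver. That is −0.24 ± 0.19 (n = 5, adjusted p = 0.36), with mice 3 and 4 apart from the others. In C3H thymus Eif5 was again below 0 in 5 of 5 mice, at −0.22 ± 0.12 (adjusted p = 0.61), but its mean over all probes of the gene there was 0.01, and its second probe averaged −0.03 in C3H liver. Of the 5 genes of the start codon group, which also holds Eif1a, Eif1ax, Eif1b and Eif5b, 4 were below 0 in C3H liver and all 5 in C3H thymus; Eif5b, which joins the ribosomal subunits, was the exception in liver with 0.41 ± 0.46.

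**Figure D4:**
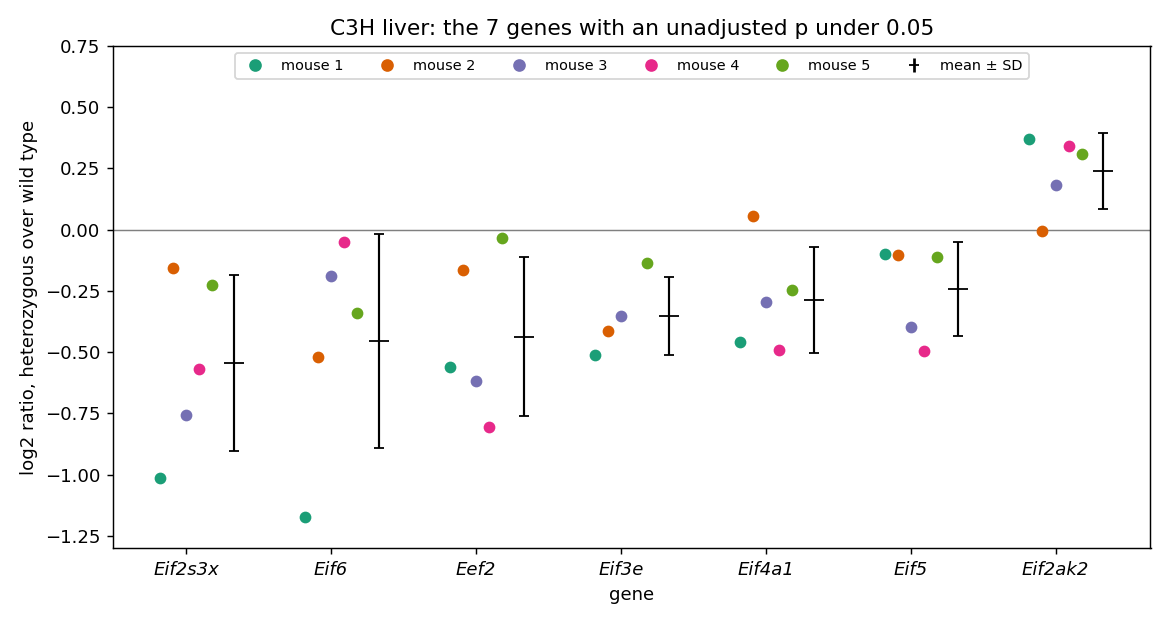
Log2 ratio of heterozygous over wild-type RNA in each of the 5 C3H liver mice (coloured points; Eif3e has 4) for the 7 genes with an unadjusted p under 0.05, with mean ± SD. The 6 lower genes average between −0.54 (Eif2s3x) and −0.24 (Eif5), and Eif2ak2 averages 0.24.

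Eif2d, which can deliver tRNA to the ribosome without GTP and helps to recycle subunits, had the smallest p of the factors in C3H brain. The mice read −0.42, −0.21, −0.29, −0.22 and −0.41, all below 0 and close together. The mean was −0.31 ± 0.10 (n = 5), with an unadjusted p of 0.00422 and an adjusted p of 0.565. In C3H liver the same gene was above 0 in all 5 mice but near it, at 0.14 ± 0.11, and in 129SvJ/Iso liver it read 0.21, 0.35, 0.79 and 1.56 in mice 1, 2, 3 and 5. That mean of 0.73 ± 0.61 (n = 4) joined dye orientations on opposite sides of 0, −0.69 in Cy3 and 2.15 in Cy5.

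The kinase PKR, encoded by Eif2ak2, is induced by interferon, is activated by double-stranded RNA and phosphorylates eIF2. It was the only factor with a higher ratio at an unadjusted p in C3H liver, where the mice read 0.37, 0.00, 0.18, 0.34 and 0.31. Mouse 2 lay at 0 and the others above it, with a mean of 0.24 ± 0.15 (n = 5, adjusted p = 0.36). The second probe averaged 0.69 ± 0.90 (n = 4) there. In C3H spleen mouse 4 alone stood at 1.51 while the others ranged from −0.02 to 0.31, and the second probe averaged −0.27. Of 13 tested targets of the stress response that eIF2 phosphorylation starts, 4 were below 0 in C3H liver (43.4% of all probes). Their median was 0.084, against 0.034 over all probes. At an unadjusted p under 0.05, 1 of them was lower and 0 were higher, against 7.66% and 6.11% of all probes. In 129SvJ/Iso liver 2 of 12 were lower and 0 higher at that p, against 6.25% and 7.86%.

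The subunits of eIF2B, which reload eIF2 with GTP, spread widely and held no gene at an unadjusted p under 0.05 in any group. Eif2b1 in C3H liver shows how: mice 1 and 2 read −1.61 and −1.32, and mice 3 to 5 read −0.07, −0.03 and −0.05. The mean of −0.62 ± 0.78 thus came from 2 mice, and from arrays with heterozygous RNA in Cy3 (−1.34) and not in Cy5 (0.10). Among the C3H organs Eif2b4 had its widest spread in thymus, at 1.16, 2.19, −0.16, 0.57 and 0.15, 4 of 5 mice above 0, with a mean of 0.78 ± 0.93 (adjusted p = 0.617). Eif2b5, the catalytic subunit, stayed between −0.08 and 0.16 in the means of the C3H organs. All 4 subunits were below 0 in 129SvJ/Iso liver, from −0.52 to −0.16, where in C3H liver 2 of 4 were. Eif2b2 differed most between the strains, with 0.16, 0.08, 0.19, 0.01 and −0.01 in the C3H liver mice and −0.75, −0.01, −0.38 and −0.95 in 129SvJ/Iso mice 1, 2, 3 and 5. The groups overlapped narrowly, at mouse 2 of 129SvJ/Iso. The difference of 0.61 (C3H minus 129SvJ/Iso) had an unadjusted p of 0.0286 and an adjusted p of 0.208. The test took 1 spread for both strains, though the SD was 0.09 in C3H and 0.42 in 129SvJ/Iso.

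eIF3 is the largest initiation factor, a complex of many subunits that binds the small ribosomal subunit. In C3H liver 9 of its 11 measured genes were below 0, with a median of −0.066, and in C3H thymus 8 of 10 with −0.065, whereas C3H spleen had 5 of 11 and C3H brain 6 of 11. Eif3e, a subunit that also binds the mRNA recruitment factor eIF4G, had the smallest p of the complex in C3H liver at −0.51, −0.41, −0.35 and −0.14 in mice 1, 2, 3 and 5. Its mean was −0.35 ± 0.16 (n = 4, unadjusted p = 0.0144, adjusted p = 0.36), and this was −0.03 on the Cy3 and −0.75 on the Cy5 arrays. Eif3h, a subunit that in zebrafish regulates translation of selected mRNAs, was below 0 in all mice of C3H thymus at −0.69, −0.15, −0.17, −0.30 and −0.24. Mouse 1 stood apart, and the mean was −0.31 ± 0.22 (n = 5, adjusted p = 0.593). The gene averaged −0.28 ± 0.30 in C3H liver, −0.27 ± 0.14 in C3H spleen and −0.61 ± 0.47 in 129SvJ/Iso liver, with 4 of 5, 5 of 5 and 4 of 4 mice below 0. Eif3a, the core subunit on which the complex is built, had means between −0.17 and 0.08 in the C3H organs, the lowest in liver, where mouse 5 alone read −0.86. Its second probe averaged −0.25 in liver (unadjusted p = 0.0464) and −0.45 in thymus (unadjusted p = 0.0163), where the chosen probe averaged 0.02. Eif3i was below 0 in all C3H brain mice, from −0.45 to −0.09 (mean −0.21 ± 0.14, adjusted p = 0.565).

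Eif3k, a small subunit at the rim of the complex, had the highest mean of the set, in 129SvJ/Iso liver, from values of 2.52, −0.19 and 2.70 in mice 1 to 3. With 1 mouse below 0 and a mean of 1.68 ± 1.62 (n = 3), its unadjusted p was 0.0309 and its adjusted p 0.346. In C3H liver the 5 mice lay between −0.09 and 0.25. The difference between the strains of −1.62 had an adjusted p of 0.181. Over all probes of Eif3k the mean in 129SvJ/Iso liver was 0.95.

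The eIF4 group holds the cap-binding protein Eif4e, the RNA helicases of the Eif4a genes and the scaffolds of the Eif4g genes, which join the capped mRNA to the ribosome. In C3H liver 6 of 7 of these genes were below 0, in thymus 5 of 7, in spleen 4 of 7 and in brain 3 of 7. The helicase Eif4a2 read, in C3H spleen, −0.76, −0.29, −0.56, −0.28 and −0.52. All 5 mice were well below 0, and the mean of −0.48 ± 0.20 (n = 5) had an unadjusted p of 0.011 and an adjusted p of 0.796. The direction in this organ is not settled, and with the Cy5 arrays turned in sign the mean was −0.08. In C3H thymus it was below 0 in 5 of 5 mice as well, at −0.24 ± 0.13 (adjusted p = 0.603), with 0.01 on the Cy3 and −0.48 on the Cy5 arrays. Its paralog Eif4a1 read −0.46, 0.06, −0.29, −0.49 and −0.25 in C3H liver. Mouse 2 was the exception, and the mean was −0.29 ± 0.22 (n = 5, adjusted p = 0.36). Eif4a3, a relative of these helicases that works in the exon junction complex and not in initiation, had means between −0.02 and 0.14 in the C3H organs. The chosen probe of Eif4e averaged −0.01 ± 0.11 in C3H liver and had mice on both sides of 0 in every C3H organ, but its 4 probes disagreed. A second one averaged −0.33 in C3H liver, −0.79 in spleen (unadjusted p = 0.0177) and −0.33 in thymus (unadjusted p = 0.0192), and another 0.53 in thymus (unadjusted p = 0.0484).

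By their chosen probes, the scaffolds Eif4g2 and Eif4g3 each had an unadjusted p under 0.05 in a single C3H organ. Eif4g2, also called DAP5, lacks the part that binds Eif4e and serves initiation that does not need the cap. In C3H thymus the mice read −0.35, −0.42, −0.06, −0.34 and −0.37, with 4 mice close together and mouse 3 near 0, and the mean was −0.31 ± 0.14 (n = 5, unadjusted p = 0.00894, adjusted p = 0.548). In C3H spleen it was above 0 in all 5 mice at 0.20 ± 0.06. Eif4g3, a paralog of the main scaffold, read −0.30, −0.22, −0.37, −0.20 and −0.33 in C3H brain. The 5 mice lay within a narrow range below 0, with a mean of −0.28 ± 0.07 (unadjusted p = 0.00462, adjusted p = 0.565) that both orientations shared (−0.26 in Cy3, −0.31 in Cy5). The gene has 5 probes, and the other 4 averaged 0.12, −0.04, −0.19 and 0.12 in C3H brain, so that the mean over all probes was −0.05. One of them was above 0 in C3H liver (0.33, unadjusted p = 0.0473) and spleen (0.52, unadjusted p = 0.0247). In 129SvJ/Iso brain its 4 mice were below 0 too, at −0.27, −0.42, −1.99 and −0.13, mouse 4 far below the others, and the mean of −0.70 became −0.24 over all probes.

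Eif4ebp1 encodes 4E-BP1, a small protein that holds Eif4e away from the scaffold until mTOR phosphorylates it. It had the lowest mean of the C3H groups, in spleen, where the mice read −2.65, −0.84, −0.89, −1.80 and −1.60. All 5 mice were below 0, and so were 9 of 9 arrays, which ran from −3.29 to −0.13. The mean of −1.56 ± 0.74 (n = 5), a fold of 2.94 lower, had an unadjusted p of 0.00138, and over all probes of the spleen the adjusted p was 0.796. Arrays with heterozygous RNA in Cy3 averaged −1.997 and those in Cy5 −0.74, and the lowest mouse, mouse 1, had a Cy3 array only. With the Cy5 arrays turned in sign the mean was −0.97, and over both probes of the gene it was −1.17. The same probe averaged 0.23 ± 0.34 in C3H liver, 0.10 ± 0.38 in thymus and 0.14 ± 0.14 in brain, with mice on both sides of 0 in each. No other C3H organ came near the spleen values, whose highest mouse (−0.84) lay below the lowest of liver (−0.04), thymus (−0.36) and brain (−0.05).

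The difference between the C3H organs was tested directly with a moderated F test over the 4 organs. The test took 1 spread per gene for all organs, but the median SD over all probes was 0.461 in spleen and 0.234 to 0.259 in the other organs. No allowance was made for this unequal spread. Eif4ebp1 was the 1 of 42 tested genes that passed (F = 19.3, p = 5.02e-06, adjusted p = 0.0116), where 0.227% of all probes passed. With each mouse as a fixed block over its organs, since the labels tie the organs to the same animals, the adjusted p was 0.0423. The call ended without mouse 1 (adjusted p = 0.0533), mouse 4 (0.11) or mouse 5 (0.0895), with the sign of the spleen Cy5 arrays turned (0.34), with the mean of both probes of the gene (0.135) and without the spleen (0.925), where the other organs were compared alone. The second probe of Eif4ebp1 was measured on 5 of 9 spleen arrays, from −2.2 to 2.03 with 2 below 0, and was not tested there.

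**Figure D5:**
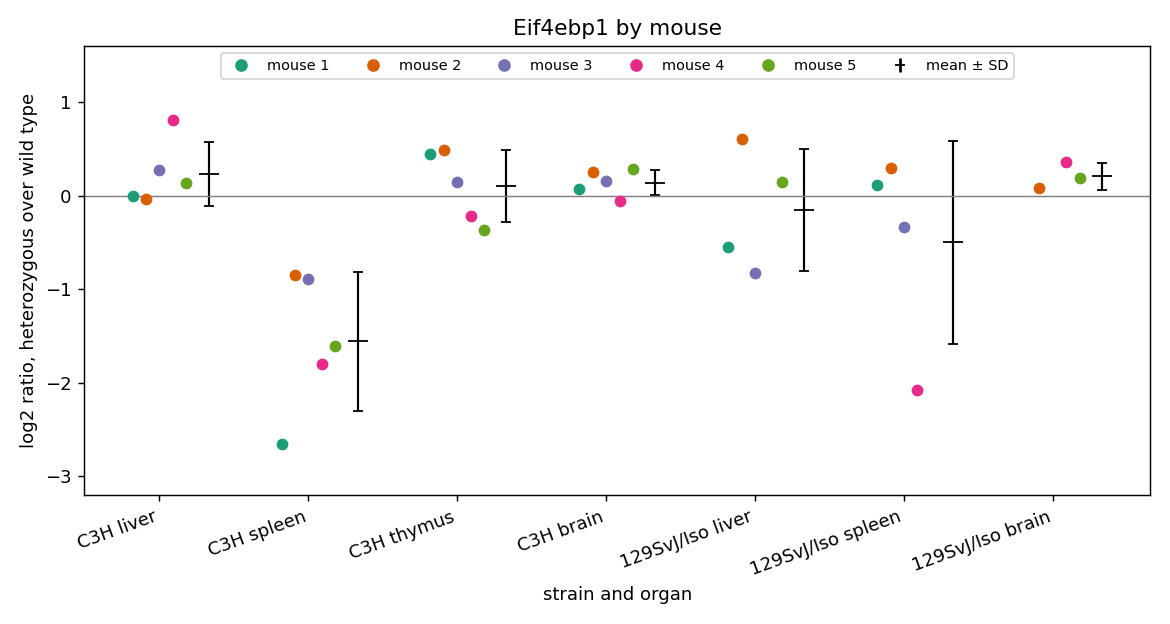
Log2 ratio of heterozygous over wild-type RNA of Eif4ebp1 in each mouse (points), with mean ± SD, in the 7 groups with mice as replicates. The 5 C3H spleen mice lie between −2.65 and −0.84, and the other C3H organs average between 0.10 and 0.23.

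In 129SvJ/Iso spleen Eif4ebp1 averaged −0.50 ± 1.09 (n = 4), with 8 of 12 measured arrays below 0, from −3.58 to 0.96. The strains did not differ in spleen by test at an unadjusted p under 0.05, for this gene or for any other of the 37 tested. Besides Eif4ebp1, the organ difference in C3H had an unadjusted p under 0.05 for Eif4a2 (adjusted p = 0.219), Eif4g2 (0.323), Eif2b4 (0.402), Eif2d (0.416) and Eif2b1 (0.435), that is for 6 of 42 genes, against 11.4% of all probes. In 129SvJ/Iso mice 0 of 26 genes passed over liver, spleen and brain (0% of all probes), and the 2 at an unadjusted p under 0.05 (16.4% of all probes) were Eif6 and Eif2d. In C3H spleen, 5 of 6 B cell markers were below 0 with a median of −0.185, and 5 of 5 macrophage markers with −0.26. Of the T cell markers 2 of 5 were below 0, with a median of 0.223. Over all probes 50.8% were below 0, and the direction in this organ is not settled. The part of these markers in the spleen ratios was not tested.

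Eif6 binds the large ribosomal subunit and keeps it from joining the small one until it is released. In C3H liver it read −1.17, −0.52, −0.19, −0.05 and −0.34. All mice were below 0 over a wide range, and the mean of −0.45 ± 0.44 (n = 5) had an adjusted p of 0.36. In 129SvJ/Iso liver mice 1, 2 and 5 read −0.69, −1.0 and −0.57, close together and all below 0, with a mean of −0.75 ± 0.22 (n = 3) and an adjusted p of 0.368. With all arrays in the fit and the mouse as a random block, the same gene reached an adjusted p of 0.0466, the only factor to do so in any group. That fit took a correlation of 0.127 between arrays of the same mouse. Such arrays thus counted almost as separate animals, and no mice were added. The second probe of Eif6 averaged −0.18 (n = 4) in 129SvJ/Iso liver, and the mean over both probes was −0.43. In 129SvJ/Iso spleen and brain Eif6 averaged 0.01 and 0.03, and the organ difference had an unadjusted p of 0.0416 and an adjusted p of 0.287.

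The strains have separate wild-type pools, so that their ratios could be set side by side. In liver 20 of 33 genes lay on the same side of 0 in both strains, 14 below and 6 above, which is 60.6% against 58.5% of all probes. In spleen the share was 19 of 37 genes (51.4% against 50.9%) and in brain 14 of 35 (40% against 51.2%). With the Cy5 arrays turned in sign in the groups whose direction is least settled, the share was 22 of 37 in spleen (59.5% against 51.3%) and 19 of 35 in brain (54.3% against 53.3%), so that no order against the background holds in brain. By the chosen probes, every measured mouse of both strains lay on the same side in liver for Eef2, Eif6, Eif2b1 and Eif2d, where 4.63% of all probes did. The same held in brain for Eif4g3 (1.48%) and in spleen for none (0.969%). The difference between strains passed for 0 of 33 genes in liver (0.288% of all probes), 0 of 37 in spleen (0%) and 0 of 35 in brain (0%). At an unadjusted p under 0.05 there were 2 genes in liver (19.3% of all probes), Eif3k and Eif2b2, 0 in spleen (7.03%) and 2 in brain (9.9%).

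The 2 brain genes were Eif1b and Eif2ak2. Eif1b, a close paralog of the start codon factor Eif1, read 0.35, 1.08 and 1.62 in 129SvJ/Iso mice 2, 4 and 5, all above 0, at 1.02 ± 0.64 (n = 3, unadjusted p = 0.029, adjusted p = 0.793). In C3H brain it averaged −0.07 ± 0.16 (n = 5) and the highest mouse (0.17) lay below the lowest of 129SvJ/Iso. The difference of −1.08 had an unadjusted p of 0.00392 and an adjusted p of 0.285, and it turned to 0.71 when the sign of the Cy5 arrays was turned in this organ, whose direction is the least settled. For Eif2ak2 the C3H mice averaged 0.14 ± 0.16 and the 129SvJ/Iso mice −0.36 ± 0.31 with 4 of 4 below 0, a difference of 0.50 (adjusted p = 0.429). With the same Cy5 arrays turned in sign, the difference of Eif2ak2 was 0.02 and its 129SvJ/Iso mean 0.13.

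The 129SvJ/Iso thymus compares a single pool of heterozygous RNA with a single pool of wild-type RNA, so that its 6 arrays give technical spread and no test of the genotype. Of 35 factors measured on at least 4 arrays, 20 were below 0, against 40% of all probes, with a median of −0.131 where all probes had 0.239. On all arrays 8 factors were below 0 and 4 above, against 11.4% of all probes in each direction. Eif5a, the hypusine-bearing factor that helps the ribosome over difficult stretches, stood lowest at −2.77, −2.63, −1.65, −2.40, −2.91 and −2.35. Eif4a2 followed at −1.64, −1.64, −2.22, −1.83, −1.87 and −2.11, both genes far below 0 on every array and in both orientations. In the C3H thymus mice Eif4a2 averaged −0.24, and the chosen probe of Eif5a had values in too few mice. The second probe of Eif5a averaged 0.20 ± 0.72 (n = 5) in C3H thymus. The chosen probe averaged 0.50 ± 0.24 (n = 3) in C3H spleen with 3 of 3 mice above 0. In 129SvJ/Iso liver it averaged −0.70 ± 0.61 (n = 3) with 3 of 3 below. The 6 arrays were also all below 0 for Eif2b2 (mean −0.94), Eef1g (−0.87), Eif3e (−0.85), Eif2b4 (−0.73) and Eif3h (−0.59). At the other end stood Eef1akmt1 with 1.26, above 0 on 4 of 4 measured arrays, and Eif3i with 1.25 on 5 of 5. All 6 measured T cell markers were below 0 in these pools, with a median of −0.628, and their part in these values was not tested.

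The liver ratios came with lower ratios of hepatocyte genes. In C3H liver 8 of 8 hepatocyte markers, from Arg1 at −0.64 to −0.26, were below 0 with a median of −0.403. At an unadjusted p under 0.05, 6 of them were lower. Over all probes 43.4% were below 0 and 7.66% were lower at that p. The median of the list ran from −0.927 to 0 over the 5 mice. The 129SvJ/Iso liver had 7 of 7 below 0 with a median of −0.932. In RNA of a whole organ, fewer cells of a type and less RNA per cell cannot be told apart, and the part of these markers in the factors' ratios was not tested. In C3H thymus 5 of 7 T cell markers were below 0 with a median of −0.104, and 7 of 8 neuronal markers were above 0 with a median of 0.253. At an unadjusted p under 0.05, 4 of the neuronal markers were higher. Over all probes of C3H thymus 49.7% were below 0 and 2.82% were higher at that p. The part of these markers in the thymus ratios was not tested either.

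The genes that work beside the factors were read in the same way, and in every list 0 passed the test in any group. The cytosolic ribosomal proteins had lower medians than the factors in liver, spleen and thymus. In C3H liver 57 of 61 were below 0 (43.4% of all probes) with a median of −0.252. At an unadjusted p under 0.05, 22 were lower and 1 was higher, against 7.66% and 6.11% of all probes. In C3H spleen 54 of 59 were below 0 with −0.207, in C3H thymus 46 of 60 with −0.084 and in C3H brain 24 of 60 with 0.012. In 129SvJ/Iso mice the list had 45 of 48 below 0 in liver (−0.738), 42 of 52 in spleen (−0.245) and 7 of 50 in brain (0.305). The medians of the ribosomal proteins and of the factors were thus on the same side of 0 in all 7 groups, although in C3H brain both were at 0. Of the 5 termination and recycling genes 2 were below 0 in C3H liver and 4 in each of spleen and thymus. In each of these organs 1 was lower at an unadjusted p under 0.05, against 7.66%, 2.86% and 5.31% of all probes. Of 14 genes of the mTOR pathway 5 were below 0 in C3H liver, with 0 at an unadjusted p under 0.05. All 4 genes of cap and poly(A) tail binding were below 0 in C3H liver, where Pdcd4, an inhibitor of the Eif4a helicases, had the lowest ratio of −0.43, and 3 of 4 in C3H thymus with the same gene lowest at −0.39. Among 4 genes of the cytosolic aminoacyl-tRNA synthetases and their complex 3 were below 0 in every C3H organ, with medians between −0.142 and −0.022.

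The pyrimidine tract was looked for at the RefSeq start of the genes (GRCm38.p6), in the 30 bases from 10 before the start to the 20th base of the transcript, on the strand of the gene, as a C followed by at least 6 bases that are C or T. A start was held for 33 of the 44 genes. Of these 8 had the tract (24.2%), against 4205 of 27025 genes (15.6%) and 26 of 53 cytosolic ribosomal protein genes (49.1%). A tract could lie anywhere in the window: it began 10 bases before the start in Eif2b5 and at base 14 of the transcript in Eif3k. The sequences below show 4 starts with the tract, in capitals, and those of Eef2 and Eif4a2, for which none was counted. The Eef2 window ends in a run of C and T, so that a tract reaching past it would be missed. The ratios of Eef2 in C3H liver and of Eif4a2 in C3H spleen were among the lowest there. Eif2s3x, which had the tract, was lower in C3H liver (−0.54) than Eef2 (−0.44).

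Eef1a1, chr9:78481705-78481734, minus strand: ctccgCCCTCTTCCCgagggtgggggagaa

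Eif2s3x, chrX:94212632-94212661, minus strand: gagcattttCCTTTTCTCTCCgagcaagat

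Eif3f, chr7:108934405-108934434, plus strand: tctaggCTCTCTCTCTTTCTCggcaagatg

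Eif2b5, chr16:20498807-20498836, plus strand: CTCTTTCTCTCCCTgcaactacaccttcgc

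Eef2, chr10:81176621-81176650, plus strand: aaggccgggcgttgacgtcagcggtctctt

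Eif4a2, chr16:23107458-23107487, plus strand: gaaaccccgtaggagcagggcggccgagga

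Eif3f and Eif2b5 were chosen for their tracts after their values were seen. In C3H liver the 8 genes with a tract had a median ratio of 0.027, 4 of them below 0, and the 25 without had −0.104, with 16 below 0. In C3H spleen the medians were 0.081 with and −0.13 without the tract, in C3H thymus 0.07 and −0.075, and in C3H brain 0.012 and −0.008. In 129SvJ/Iso liver they were −0.128 and −0.137, in spleen −0.094 and −0.001, and in brain 0.115 and 0.097. A match of these letters describes the start and says nothing of control.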

How the data were processed

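Per the file headers and labels, the authors deposited 1 normalized log2 ratio per spot of a 2-colour cDNA array, already turned for dye; the sources used here do not say how they were normalized, and array medians ran from −0.247 to 0.314. Arrays bring only ratios, and their number limits the precision. Values beyond ±10, a constant of 14.88 to 17.54 in size on 19 to 618 spots per array whose sign followed the dye on 86 of 86 arrays, were treated as missing. Arrays of a mouse were averaged within each dye and then over both, with a value required in each dye the mouse had. Each group was fitted with limma 3.58.1 (R 4.3.3; lmFit, eBayes) against 0, for probes with at least 3 mice, two-sided, with Benjamini-Hochberg adjustment over all probes; strains were compared by their difference and organs by a moderated F test. Of the probes 12771 had a symbol and 8023 had none. Pool members are listed in most labels, and replicate mice are separate animals. Named genes were, in each group, up to 5 with the smallest p among those at an unadjusted p under 0.05 with all mice on the same side of 0, up to 3 in each strain difference, up to 5 in each organ difference, and a list of factors by role; Eif3f was named besides. The members and lists were chosen with earlier results of these data known. The scripts were tested on simulated data.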

Additional observations from a re-analysis of the deposited data

Results flagged for a closer look

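Eif4ebp1, the gene of 4E-BP1, differed between the organs of the C3H mice by the moderated F test (adjusted p = 0.0116), with a mean ratio of −1.56 in spleen and of 0.10 to 0.23 in liver, thymus and brain.

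In 21 of 248 sets of 4 or 5 mice, a single mouse lay far from the others by Dixon's criterion, and chance alone marks about 1 in 20 sets. In C3H liver these were Eif2b4 at −0.79 in mouse 1 (others −0.17 to 0.07), Eif3a at −0.86 in mouse 5 (others −0.03 to 0.06) and Eef1akmt1 at 0.29 in mouse 4 (others 0.06 to 0.08). In C3H spleen they were Eif2ak2 at 1.51 in mouse 4 (others −0.02 to 0.31) and Eif3l at 0.8 in mouse 2 (others −0.05 to 0.16). In C3H thymus mouse 1 stood apart for Eif3h (−0.69, others −0.3 to −0.15) and Eif3m (−0.69, others −0.18 to −0.03), and mouse 3 for Eif4g2 (−0.06, others −0.42 to −0.34) and Eif2b5 (−0.1, others 0.17 to 0.26). In C3H brain Eef1akmt1 stood at −1.17 in mouse 1 (others −0.08 to 0.09) and Eif2a at 1.42 in mouse 4 (others −0.04 to 0.19).

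Mouse 3 of 129SvJ/Iso liver stood apart for Eif4a2 (0.62, others −1.05 to −0.95) and Eif3e (2.61, others −0.68 to −0.37), and mouse 2 for Eif2a (0.42, others −0.78 to −0.73). In 129SvJ/Iso spleen they were Eif4a3 at 1.84 in mouse 5 (others −0.44 to −0.09), Eif4a1 at −1.51 in mouse 4 (others −0.28 to −0.05), Eif2b2 at 0.62 in mouse 3 (others −0.36 to −0.1) and Eef1akmt4 at −2.16 in mouse 5 (others −0.34 to 0.35). In 129SvJ/Iso brain they were Eif4g3 at −1.99 in mouse 4 (others −0.42 to −0.13), Eif4ebp3 at −3.26 in mouse 5 (others −0.25 to 0.3) and Eif4a1 at 1.25 in mouse 3 (others −0.02 to 0.14). None of the medians of the set per mouse stood apart in its group.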

How the results depend on the processing

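The count of genes passing the adjusted test stayed at 0 in 6 of 7 groups under every alternative, and in 129SvJ/Iso liver it was 1 (Eif6) with the mouse as a random block. That fit counted the arrays of a mouse almost as separate animals. With the Cy5 arrays of 129SvJ/Iso brain turned in sign, 2 genes passed the strain difference in brain (Eef1b2, adjusted p = 0.0331, and Eif4ebp3, adjusted p = 0.0351), and Eif1b reversed to −0.78 in that group and to 0.71 in the strain difference. The strain difference of Eif2ak2 in brain fell from 0.50 to 0.02 under this setting. The organ difference in C3H fell from 1 gene to 0 with the spleen Cy5 arrays turned, without the spleen, with the mean of all probes, and without mouse 1, 4 or 5, so that leaving out mice gave 0 to 1. With the mouse as a replicate block, 1 gene passed in C3H and 0 in 129SvJ/Iso, and the block changed no call. With heterozygous RNA in Cy3 only, the median of the set was 0.034 in C3H thymus, 0.125 in C3H brain, 0.055 in 129SvJ/Iso spleen and −0.094 in 129SvJ/Iso brain, and with Cy5 only it was −0.104 in C3H brain. The median in 129SvJ/Iso liver was −0.005 when any array of a mouse was enough and −0.345 to −0.143 when mice were left out in turn, lowest without mouse 5. In 129SvJ/Iso brain it was −0.172 with the sign turned, and in the 129SvJ/Iso thymus pools −0.295 after centring. Eif5 in C3H thymus reversed to 0.01 with the mean of all probes. The cause of these changes was not tested. Counts at an unadjusted p moved by more than 1.5 times under 44 alternatives, between 3 and 10 lower genes in C3H liver. The alternatives added after the data were seen are the turned spleen and strain fits, the turned shares of genes on the same side of 0 and those of the C3H organ difference other than the block, the centring and the values in every mouse.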
